A study of Mus musculus with 9 samples.

Results

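Cytokines, and the receptors that read them, were followed through osteoclast formation of RAW264.7 cells with and without uridine (UD). The members are the genes that the deposited annotation places in the KEGG pathway of cytokine-cytokine receptor interaction, less the chemokines and chemokine receptors that carry such symbols (Ccl, Ccr, Cxcl, Cxcr, Cx3c, Xcr and Ackr), the receptors of the colony-stimulating factors, the receptor of RANKL, Tgfb1 with its receptors Tgfbr1 and Tgfbr2, and Ctf1. This left 258 of the 56691 genes listed. RAW264.7 is a transformed mouse macrophage line that turns into osteoclast-like cells when it is given RANKL, the TNF family cytokine that drives osteoclast formation. RNA was sequenced from 3 libraries each of unstimulated cells (control), cells given RANKL (RANKL) and cells given RANKL with UD (RANKL + UD), after 3 days according to the labels. The UD concentration used for these libraries is not given in the sources used here. The 9 libraries held 15951800 to 19746862 counted reads, which limits what can be said of genes with a few reads.

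Cytokines are secreted or membrane-bound proteins that act through matching receptors, often on the cell that made them. The TNF family signals through trimeric receptors, some with death domains, towards NF-κB and MAP kinases. Most interleukins and interferons act through receptor chains that bind JAK kinases and STAT factors, whereas the interleukin 1 group uses the adaptor Myd88. BMPs and activins act through paired serine/threonine kinase receptors and SMAD factors. In bone, TNF and interleukin 1 are known to promote osteoclast formation and interferons to restrain it, and soluble receptors or receptor antagonists blunt several of these signals.

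Of the 258 members, 64 reached an FPKM (reads scaled to exon length and library total) of 1 or more in 3 or more libraries and were tested with 11995 genes in all. Among the other 194, 100 had no read in any library, 36 had at most 3 reads in each library, and 58 lay between that floor and the filter. Of the 64 tested, 49 had an FPKM of at least 1 in all 9 libraries, and 15 passed without that, so that a part of them entered only through the group in which they were high. The tested share was 8 of 19 TNF family ligands, 12 of 24 TNF receptors, 5 of 36 interleukins and 15 of 36 interleukin receptors. It was 4 of 26 interferon genes, 2 of 26 gp130 and haematopoietic cytokine genes, and 8 of 10 BMP, activin and TGF-β receptors. The 4 interferon genes tested were receptor genes, and a further receptor gene, Ifnlr1, was not tested. None of the 30 BMP, activin and TGF-β ligands was tested. The other 10 tested genes carry the pathway in the annotation and, apart from Pf4, are not cytokine genes by name. Pf4, Ppbp and Xcl1 are chemokine genes whose symbols the exclusion did not cover, and of these Pf4 was tested. By mean FPKM, the leading members were Il13ra1 (41.9), a receptor chain for interleukins 4 and 13, Tnf (34.6), Il2rg (34.2), the common gamma chain, and the interferon gamma receptor genes Ifngr2 (30.8) and Ifngr1 (28.2).

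The identity of the cultures was checked with markers. The summed FPKM of 6 macrophage genes was 9049 to 9599 in control, 2337 to 2585 in RANKL and 2044 to 2165 in RANKL + UD libraries, and all 6 were tested. The summed FPKM of 6 osteoclast genes, of which 5 were tested, was 38.1 to 40.8, 2277 to 2478 and 1429 to 1457. The sums of 6 osteoblast or stromal and 4 T cell genes stayed at or below 0.99 and 0.07, and Cd3e, Cd3g and Cd2 had no read. The macrophage sum was carried by Lyz2, with a mean FPKM of 8000 in control, 1431 in RANKL and 1285 with UD, and Adgre1, Itgam, Cd14 and Ptprc were also highest in control. Cd68 went the other way, with means of 549, 782 and 643, and Adgre1 had 10.1 in RANKL and 12.6 with UD while Lyz2, Itgam and Cd14 were lower with UD than with RANKL. The part of these markers in the results below was not tested. In such bulk RNA, fewer cells of a type and less RNA per cell cannot be told apart.

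RANKL against control asks how osteoclast formation changes the RNA of cytokine and receptor genes in a culture. Tnfsf8, Il20rb, Il1rn and Ltb rose, Tnf, Tnfsf9, Il10ra, Il18rap and Ifnar2 fell, and most of the tested receptor genes of the interleukin, TNF and interferon groups were lower. Of the 64 tested members, 14 were higher and 37 lower in RANKL at an adjusted p under 0.05 (edgeR's quasi-likelihood test). The 51 called are 79.7% of those tested, where 57.6% of all genes tested were called (27.3% higher and 30.2% lower). With a fold change over 1.5 also required, 33 members (51.6%) were called, 11 higher and 22 lower, against 24.9% of all genes (10.8% higher and 14.1% lower). The median log2 fold change was −0.24 over the members and −0.03 over all genes. The FPKM values of the 2 groups did not overlap for 53 members, against 61.7% of all genes. Without the 10 genes of other annotation, 13 were higher, 32 lower and 9 not called. The 64 include 15 members with an FPKM under 1 in some libraries. From these, Tnfsf8, Tnfsf15, Tnfsf18, Tnfsfm13, Il20rb, Il1b, Cd40, Lifr, Osm and Pf4 are among the 33. They were tested because of groups in which they were higher, so the 51.6% cannot be read as an excess over all genes. Of the 49 others, 9 were higher and 31 lower without the fold change required.

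**Figure D1:**
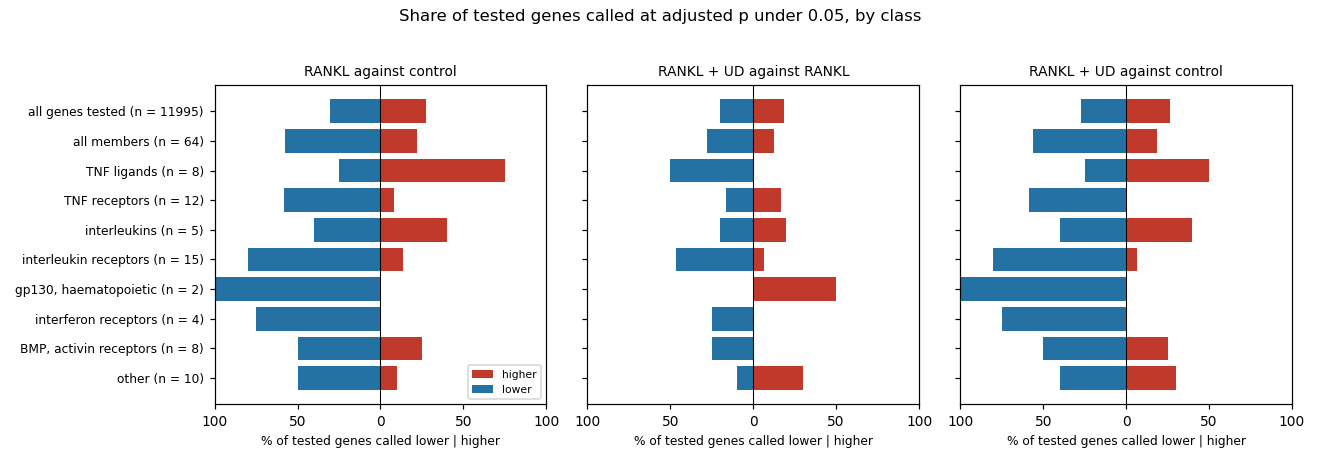
Share of tested genes called higher (red, right) or lower (blue, left) at an adjusted p under 0.05, in percent, for all genes tested, the members and each class, in the 3 comparisons. In RANKL against control, 12 of 15 interleukin receptors were lower, and 6 of 8 TNF ligands were higher, 4 of which had an FPKM under 1 in some libraries.

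Among the TNF ligands 6 of 8 were higher and 2 lower, but 4 of the 6 (Tnfsf8, Tnfsf15, Tnfsf18 and Tnfsfm13) had an FPKM under 1 in control libraries and were tested because of other groups. The 4 ligands with an FPKM of at least 1 in all 9 libraries divided into 2 higher (Ltb and Tnfsf12) and 2 lower (Tnf and Tnfsf9), so that no direction can be read for the class. Among the TNF receptors 1 of 12 was higher and 7 were lower, with a median of −0.37. The interleukins had 2 higher and 2 lower of 5. Interleukin receptors had 2 higher and 12 lower of 15 (median −0.89), interferon receptors 3 lower of 4, and the BMP and activin receptors 2 higher and 4 lower of 8 (median −0.10). Restricted to members with an FPKM of at least 1 in all 9 libraries, a limit that also removes genes that fell, TNF receptors had 1 higher and 6 lower of 9 and interleukin receptors 1 higher and 11 lower of 12. The gp130 and haematopoietic class had 2 genes tested, Lifr and Osm, with Il6st counted among the interleukin receptors. Both were lower and had passed the filter through control, where they were high. Lif and Ghr of that class, which the filter left out, were higher.

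Among TNF ligands, Tnfsf8 (ENSMUSG00000028362), which encodes CD30 ligand, rose most. It had 16, 24 and 5 reads in control and 2317, 2149 and 2151 in RANKL libraries, corresponding to an FPKM of 0.25, 0.32 and 0.08 against 30.9, 29.2 and 29.5. The log2 fold change was 7.13 ± 0.14 (SE, adjusted p = 7.29e-20). Tnfsf15, the ligand of death receptor 3, had an FPKM of 0.69, 0.63 and 0.56 in control and 3.24, 2.99 and 2.51 in RANKL, a log2 fold change of 2.30 ± 0.15 (adjusted p = 1.37e-11). Ltb, which encodes lymphotoxin beta, went from 9.56, 9.62 and 11.7 to 22.2, 25.8 and 26.4, a log2 fold change of 1.36 ± 0.10 (adjusted p = 2.71e-10). All RANKL libraries were above all control libraries for these 3 genes. Tnfsf18, the GITR ligand, was higher at a low level, with 0.20, 0.32 and 0.27 in control and 0.44, 1.13 and 1.61 in RANKL (log2 fold change 2.06 ± 0.44, adjusted p = 0.000396). Tnfsf12, which encodes TWEAK, had 3.88, 2.34 and 2.52 in control and 7.40, 8.30 and 8.57 in RANKL, a log2 fold change of 1.56 ± 0.18 (adjusted p = 1.67e-07). Tnfsf12 lies wholly within Tnfsfm13 on the same strand, and reads of the pair cannot be separated with certainty. Tnfsfm13 itself had a log2 fold change of 1.19 ± 0.29 (adjusted p = 0.00136).

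The 2 TNF ligands that fell were the most abundant ones of control cells. Tnf (ENSMUSG00000024401) had an FPKM of 57.4, 61.9 and 62.3 in control and 21.2, 20.7 and 23.1 in RANKL libraries, so that the groups were far apart. The log2 fold change was −1.40 ± 0.07 (adjusted p = 9.54e-14). Tnfsf9, which encodes 4-1BB ligand, had 44.1, 45.0 and 43.6 in control and 10.4, 8.10 and 11.3 in RANKL, a log2 fold change of −2.07 ± 0.10 (adjusted p = 3.08e-13). Tnf and Ltb are neighbours within 7.6 kb on chromosome 17 and went opposite ways, while the neighbours Tnfsf15 and Tnfsf8, within 136.7 kb on chromosome 4, both rose. The gene of RANKL itself, Tnfsf11, and that of its decoy receptor, Tnfrsf11b, had no read in any library.

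**Figure D2:**
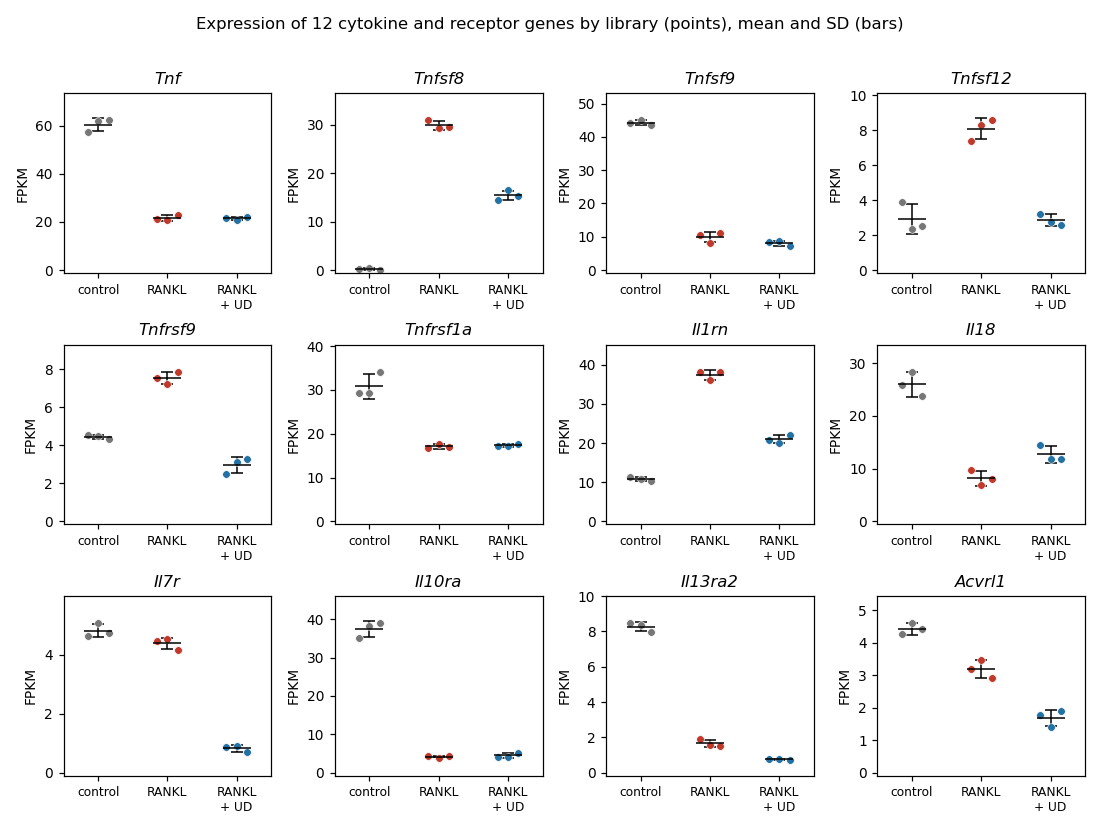
FPKM of 12 member genes in each library (points) with the group mean and SD (bars, n = 3), on a separate linear axis for each gene. Tnfsf8 is near 0 in control and highest in RANKL, Tnf is low in both groups given RANKL, and Il7r is low only in RANKL + UD.

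Receptors of the TNF family were mostly lower in RANKL. Tnfrsf1a and Tnfrsf1b, the receptors of TNF, fell with log2 fold changes of −0.76 ± 0.07 (adjusted p = 4.98e-09) and −0.82 ± 0.08 (adjusted p = 8.82e-09). Tnfrsf1a had an FPKM of 29.2, 29.3 and 34.2 in control and 16.7, 17.7 and 17.0 in RANKL. Tnfrsf14, the receptor of LIGHT, fell by 1.73 ± 0.22 on the log2 scale (adjusted p = 1.1e-06), Cd40 fell by 1.33 ± 0.19 (adjusted p = 3.12e-06) and Tnfrsf12a, the TWEAK receptor, fell by 0.92 ± 0.22 (adjusted p = 0.00116). Fas, a death receptor, fell by 0.47 (adjusted p = 0.00293). Tnfrsf9, the receptor of 4-1BB ligand, was the one that rose, from 4.54, 4.47 and 4.33 to 7.55, 7.24 and 7.87 (log2 fold change 0.85 ± 0.11, adjusted p = 1.55e-06). Its ligand gene Tnfsf9 fell in the same libraries.

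Among interleukins, Il1rn (ENSMUSG00000026981) rose most. It encodes the antagonist that occupies the interleukin 1 receptor without signalling. Its FPKM was 11.3, 10.7 and 10.3 in control and 38.2, 36.0 and 38.3 in RANKL, a log2 fold change of 1.89 ± 0.06 (adjusted p = 4.1e-17). Il15 rose from 5.17, 5.24 and 4.41 to 8.01, 8.08 and 8.09 (log2 fold change 0.79 ± 0.10, adjusted p = 1.38e-06). Il18, an interleukin 1 family cytokine, fell from 25.9, 28.4 and 23.7 to 9.75, 6.93 and 7.94 (−1.58 ± 0.13, adjusted p = 1.09e-09). Il1b was low throughout, at 1.34, 1.57 and 1.15 in control and 0.16, 0.30 and 0.27 in RANKL (−2.38 ± 0.39, adjusted p = 2.43e-05). Il4 had a log2 fold change of 0.17 (adjusted p = 0.699). Il1r1, the gene of the interleukin 1 receptor, had 3, 0 and 0 reads in control and 4, 1 and 0 in RANKL. It had none with UD, and Il1r2 had no read in any library. Il18, like Tnfsf9 and Il10ra, overlaps a gene on the opposite strand, and whether the counting used strand is not given in the sources used here.

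Interleukin receptor genes held the largest falls of the abundant members. Il10ra, the ligand-binding chain for interleukin 10, had an FPKM of 35.0, 38.3 and 39.0 in control and 4.27, 3.96 and 4.25 in RANKL (log2 fold change −3.08 ± 0.08, adjusted p = 8.09e-18). Il18rap, a chain of the interleukin 18 receptor, went from 12.3, 12.0 and 12.5 to 1.32, 1.51 and 1.46 (−3.01 ± 0.09, adjusted p = 3.06e-17). Il13ra2, a decoy receptor of interleukin 13, went from 8.48, 8.37 and 7.97 to 1.91, 1.57 and 1.51 (−2.23 ± 0.14, adjusted p = 2.11e-11), and Il17ra from 15.1, 15.1 and 14.3 to 3.42, 3.92 and 3.72 (−1.92 ± 0.07, adjusted p = 5.86e-16). For each of these 4, no RANKL library reached a control library. Il6ra and Il6st, which encode the interleukin 6 receptor and gp130, fell by 1.27 ± 0.06 (adjusted p = 1.43e-13) and 1.16 ± 0.05 (adjusted p = 2e-14). Il20rb, a chain of interleukin 20 receptors, went the other way, from 0.32, 0.19 and 0.21 to 2.99, 3.35 and 3.51 (3.85 ± 0.20, adjusted p = 6.62e-13). The second chain of the interleukin 10 receptor, Il10rb, was slightly higher (0.22, adjusted p = 0.00445), a call that was lost with total counts (0.13, adjusted p = 0.0775). Il15ra, the receptor chain of interleukin 15, fell from 2.63, 2.85 and 3.53 to 1.32, 1.5 and 1.38 (−1.01 ± 0.15, adjusted p = 5.82e-06), while its ligand gene Il15 rose. Partner chains of some of these receptors had few or no reads. Il20ra and Il22ra1, which pair with Il20rb, and Il2rb, which acts with Il15ra, had no read in any library. Il18r1, which pairs with Il18rap, had 1, 2 and 2 reads in control and 4, 2 and 2 in RANKL.

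**Figure D3:**
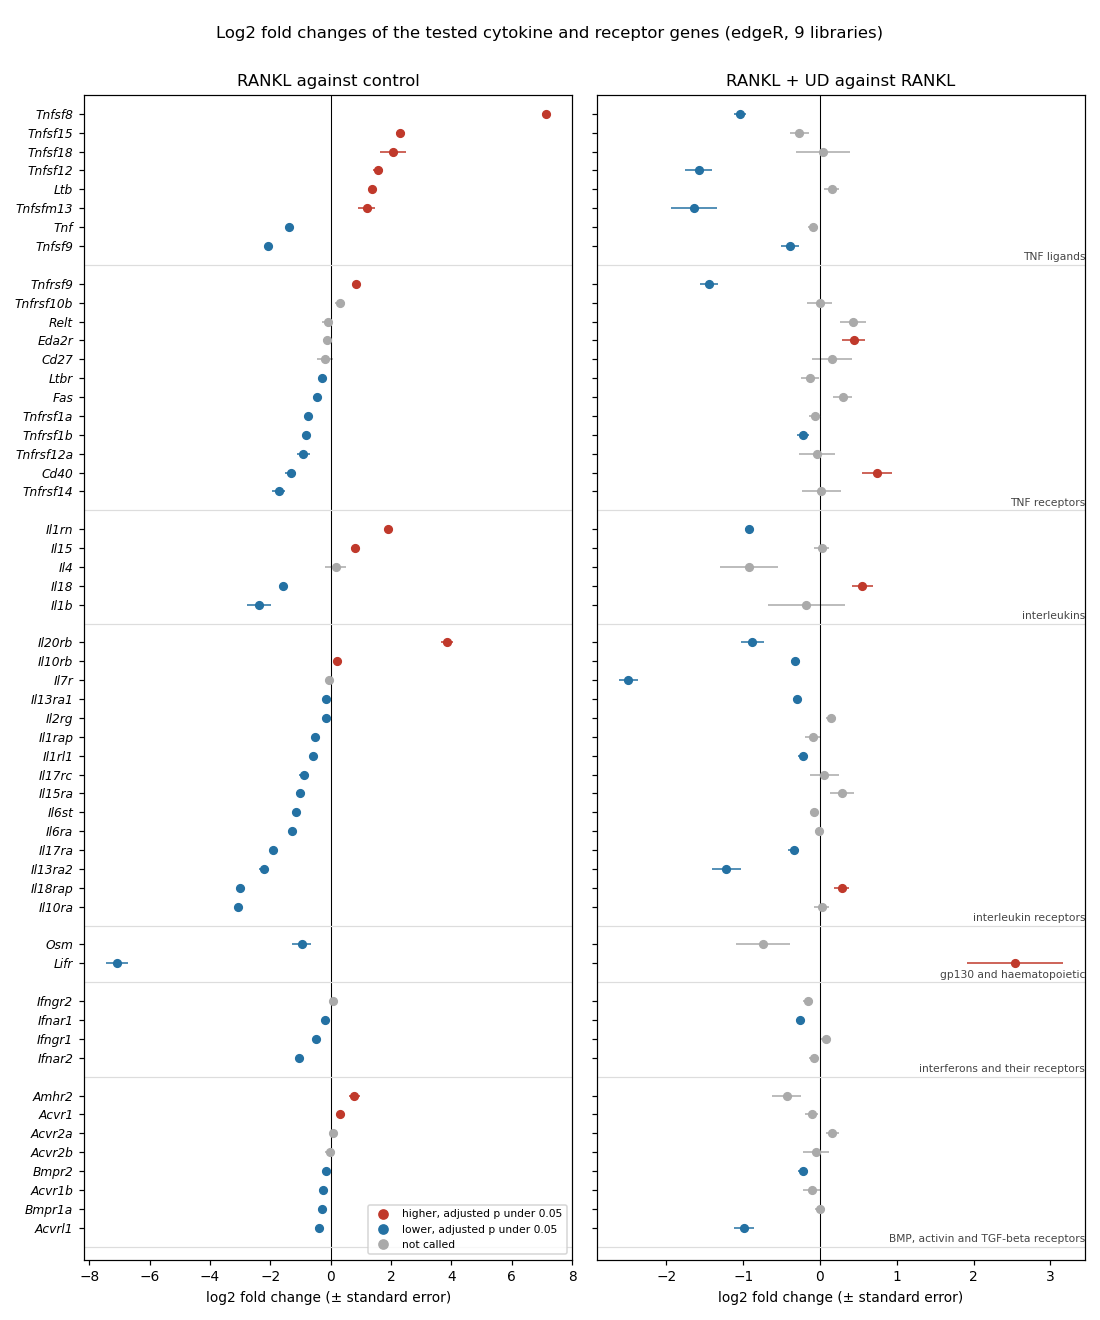
Log2 fold change with its standard error for the 54 tested members of the named classes in RANKL against control (left) and RANKL + UD against RANKL (right), red for higher, blue for lower and grey for not called. Values run from −7.08 (Lifr) to 7.13 (Tnfsf8) on the left and from −2.49 (Il7r) to 2.54 (Lifr) on the right.

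Il10rb lies in a run of 4 receptor genes within 192.8 kb on chromosome 16, with the interferon receptor genes Ifnar2, Ifnar1 and Ifngr2. Ifnar2 fell from 27.4, 30.0 and 27.9 to 12.4, 13.2 and 12.7 (log2 fold change −1.07 ± 0.06, adjusted p = 2.54e-12), and Ifnar1 fell by 0.20 (adjusted p = 0.00228). Ifngr2 had a log2 fold change of 0.08 (adjusted p = 0.288). Ifngr1, on another chromosome, fell by 0.48 (adjusted p = 1.1e-06). The neighbouring genes therefore did not share 1 direction. Of the interferon ligands, Ifnb1 and Ifng had no read in any library.

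The receptor of leukaemia inhibitory factor was nearly lost in RANKL. Lifr had 203, 297 and 203 reads in control and 4, 1 and 0 in RANKL libraries, a ratio of 156 after scaling by library size (95% exact interval 66.4 to 481, covering counting error only). Its ligand Lif lay below the expression filter and had 4, 4 and 1 reads in control and 93, 76 and 80 in RANKL, a ratio of 25 (12.9 to 55.3). Ligand and receptor reads thus went opposite ways with RANKL. Osm, which encodes oncostatin M, fell by 0.96 (adjusted p = 0.0116), a call that was lost without control replicate 1 (−0.82, adjusted p = 0.0522) or without RANKL replicate 1 (−0.61, adjusted p = 0.0679).

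The log2 fold changes of BMP and activin receptor genes were all under 1 in size. Bmpr1a fell by 0.28 (adjusted p = 0.000501) and Acvrl1, which encodes ALK1, fell by 0.39 ± 0.12 (adjusted p = 0.00689), while Acvr1 rose by 0.31 (adjusted p = 0.00363) and Amhr2, the receptor of anti-Müllerian hormone, rose by 0.79 ± 0.19 (adjusted p = 0.00154). The calls of Acvr1b (−0.27, adjusted p = 0.041) and Bmpr2 (−0.17, adjusted p = 0.0233) were lost under several alternatives, among them without RANKL replicate 2 (adjusted p = 0.121 and 0.0577).

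RANKL + UD against RANKL asks which of these genes differ when UD is present during osteoclast formation. Il7r, Tnfrsf9, Tnfsf12, Tnfsf8, Il13ra2, Acvrl1 and Il1rn were lower with UD, and Cd40, Il18 and the sparsely read Lifr were higher. Of the 64 tested members, 8 were higher and 18 lower. The 26 called are 40.6%, close to the 38.8% of all genes tested (18.6% higher and 20.2% lower). With a fold change over 1.5 also required, 11 members (17.2%) were called, 2 higher and 9 lower, against 9.86% of all genes (4.38% higher and 5.49% lower). Of these 11, Tnfsf8, Tnfsfm13, Il7r, Il13ra2, Il20rb, Cd40 and Lifr had an FPKM under 1 in some libraries. They were tested because of the groups in which they were higher, and Tnfsf12 may share reads with Tnfsfm13. The 17.2% can therefore not be read as an excess over all genes. Of the 49 members with an FPKM of at least 1 in all 9 libraries, 6 were higher and 13 lower. The median log2 fold change was −0.09 over the members. The FPKM values did not overlap for 31 members, against 51.7% of all genes. Scaled by total counts alone, 14 members were higher and 15 lower, and without RANKL + UD replicate 2 the higher count was 5. This comparison and the one above share the RANKL libraries, so that opposite directions in the pair are not independent of each other.

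By class, TNF ligands had 0 higher and 4 lower of 8, TNF receptors 2 higher and 2 lower of 12, interleukins 1 higher and 1 lower of 5, and interleukin receptors 1 higher and 7 lower of 15. Over all genes, 18.6% were higher and 20.2% lower. Restricted to members with an FPKM of at least 1 in all 9 libraries, TNF ligands had 0 higher and 2 lower of 4. Under the same limit, TNF receptors had 1 higher and 2 lower of 9, and interleukin receptors 1 higher and 4 lower of 12. The lower TNF ligands include Tnfsf12 and Tnfsfm13, whose reads cannot be separated with certainty. Interferon receptors had 1 lower of 4, the gp130 and haematopoietic class 1 higher of 2, and BMP and activin receptors 2 lower of 8. The members whose log2 fold change passed 1 in size were Tnfsf8, Tnfsf12, Tnfsfm13, Tnfrsf9, Il7r, Il13ra2 and Lifr.

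The sequence just upstream of a gene holds part of its control, so the RefSeq promoters of these members were read. Of the 64 tested members, 54 had an entry, with 65 start sites between them, and 6 of the 7 members just named had one. Shown are the 250 bases before the start of Il7r, Tnfsf8 and Il13ra2 and before the second listed start of Tnfrsf9, 4 members past a log2 fold change of 1 that have enough reads and do not share them with a neighbour. The second start of Tnfrsf9 was chosen for its matches. Each is written 5′ to 3′ on the strand of the gene, in GRCm38.p6, with matches to the searched motifs in capitals.
Il7r, chr15:9529877-9530126, minus strand: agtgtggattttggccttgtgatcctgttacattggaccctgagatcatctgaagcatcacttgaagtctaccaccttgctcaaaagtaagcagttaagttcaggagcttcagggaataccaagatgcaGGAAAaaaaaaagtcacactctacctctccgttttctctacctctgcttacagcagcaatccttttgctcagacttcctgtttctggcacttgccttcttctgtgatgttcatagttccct
Tnfsf8, chr4:63861285-63861534, minus strand: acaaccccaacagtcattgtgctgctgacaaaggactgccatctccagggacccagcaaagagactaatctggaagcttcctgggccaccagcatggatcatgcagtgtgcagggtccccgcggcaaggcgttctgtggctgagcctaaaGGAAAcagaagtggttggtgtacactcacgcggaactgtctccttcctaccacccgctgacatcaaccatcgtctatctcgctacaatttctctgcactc
Il13ra2, chrX:147429193-147429442, minus strand: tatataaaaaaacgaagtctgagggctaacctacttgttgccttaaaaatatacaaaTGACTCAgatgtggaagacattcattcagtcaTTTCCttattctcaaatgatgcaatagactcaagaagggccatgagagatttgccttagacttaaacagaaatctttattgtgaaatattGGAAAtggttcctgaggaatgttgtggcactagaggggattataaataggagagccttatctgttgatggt
Tnfrsf9, chr4:150927749-150927998, plus strand: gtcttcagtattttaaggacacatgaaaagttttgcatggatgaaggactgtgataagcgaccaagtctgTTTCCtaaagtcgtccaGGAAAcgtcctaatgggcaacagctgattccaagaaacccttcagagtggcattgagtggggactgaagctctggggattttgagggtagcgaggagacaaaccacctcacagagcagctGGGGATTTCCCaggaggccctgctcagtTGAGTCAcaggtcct

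On both strands, the AP-1 motif TGANTCA, the NFAT core GGAAA, the PU.1 motif GAGGAAGT and the NF-κB consensus were searched. The NFAT core is so short that 55.6% of all 32851 promoters held it, and it was found in all 4 sequences. AP-1, found in 6.75% of all promoters, matched in Il13ra2 and Tnfrsf9. The NF-κB consensus, found in 3.9% of all promoters, matched in Tnfrsf9 at a pair of overlapping positions that also cover an NFAT core match. As this start of Tnfrsf9 was chosen for its matches, they cannot be weighed against the shares of all promoters. The first listed start of Tnfrsf9, not shown, held the NFAT core but no match to AP-1, PU.1 or NF-κB. PU.1, found in 2.44% of all promoters, had no match in these windows. Among the 65 start sites of tested members, 38 held the NFAT core, 5 AP-1, 4 PU.1 and 6 NF-κB. Such matches describe the letters and not the binding of a factor.

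Il7r (ENSMUSG00000003882), which encodes the interleukin 7 receptor alpha chain, showed the largest fall with UD. Its FPKM was 4.48, 4.52 and 4.16 in RANKL and 0.88, 0.89 and 0.70 in RANKL + UD libraries, a log2 fold change of −2.49 ± 0.12 (adjusted p = 4.31e-12). In control it was 4.65, 5.08 and 4.73, and RANKL against control gave −0.05 ± 0.10 (adjusted p = 0.696). All 3 libraries with UD were thus below the 6 others. Against control, the log2 fold change with UD was −2.54 ± 0.12 (adjusted p = 1.95e-13). Its ligand and its partner chain were read too. Il7, the ligand gene, had 22 reads over the RANKL libraries and 10 over the RANKL + UD libraries, a ratio of 2.01 with an interval (0.914 to 4.76) that includes 1. Il2rg, the partner chain, had a log2 fold change of 0.14 with UD (adjusted p = 0.0916), which passed the test with total counts (0.23, adjusted p = 0.00722) or without RANKL replicate 3 (0.19, adjusted p = 0.0318).

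In the TNF family, Tnfrsf9 (ENSMUSG00000028965) had an FPKM of 7.55, 7.24 and 7.87 in RANKL and 2.47, 3.11 and 3.30 with UD, a log2 fold change of −1.44 ± 0.12 (adjusted p = 6.04e-09). With UD it was also below control (−0.59 ± 0.12, adjusted p = 0.000381). Tnfsf8 had 30.9, 29.2 and 29.5 in RANKL and 14.4, 16.4 and 15.3 with UD (−1.04 ± 0.08, adjusted p = 2.23e-09). It thus stayed far above control in every library, with a log2 fold change of 6.09 ± 0.15 (adjusted p = 2.83e-18). Tnfsf12 had 7.40, 8.30 and 8.57 in RANKL and 3.22, 2.75 and 2.60 with UD (−1.58 ± 0.18, adjusted p = 4.87e-07), and its difference from control was −0.02 ± 0.20 (adjusted p = 0.949). Tnfsf9 was lower by a small amount (−0.39 ± 0.12, adjusted p = 0.012), a call that was lost without RANKL replicate 3 (adjusted p = 0.078) or without RANKL + UD replicate 3 (adjusted p = 0.0669). Tnf had 21.8, 20.8 and 22.0 with UD, a log2 fold change of −0.09 ± 0.07 (adjusted p = 0.324), and Ltb, Tnfsf15 and Tnfsf18 were not called either. Cd40 had 0.91, 0.68 and 0.81 in RANKL and 1.46, 1.37 and 1.43 with UD (0.74 ± 0.19, adjusted p = 0.00459). It remained below the control libraries, which held 1.87, 2.47 and 2.10 (−0.59 ± 0.18, adjusted p = 0.00719), a call that was lost without control replicate 2 (−0.48, adjusted p = 0.0547). Eda2r was slightly higher with UD (0.44, adjusted p = 0.0208), a call lost without RANKL replicate 3 (adjusted p = 0.0875) or without RANKL + UD replicate 2 (adjusted p = 0.111).

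Il1rn had an FPKM of 38.2, 36.0 and 38.3 in RANKL and 20.7, 20.1 and 22.1 with UD, which placed the UD libraries between the other groups. The log2 fold change was −0.92 ± 0.05 (adjusted p = 4.33e-11), and against control it was 0.96 ± 0.06 (adjusted p = 5.08e-12). Il18 was higher with UD, at 14.6, 11.8 and 11.8 (0.55 ± 0.14, adjusted p = 0.00296), and still below control (−1.03 ± 0.12, adjusted p = 4.7e-07). Il13ra2 went lower again, from 1.91, 1.57 and 1.51 in RANKL to 0.78, 0.78 and 0.71 with UD (−1.22 ± 0.19, adjusted p = 2.76e-05). Il20rb went from 2.99, 3.35 and 3.51 to 1.75, 2.20 and 1.73 (−0.88 ± 0.15, adjusted p = 8.59e-05), and Il17ra fell by 0.34 ± 0.07 (adjusted p = 0.000788). Il10ra, at 4.13, 4.15 and 5.18 with UD, had a log2 fold change of 0.02 ± 0.09 (adjusted p = 0.882), and Il6ra and Il6st were not called.

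Among BMP and activin receptors, Acvrl1 (ENSMUSG00000000530) stood apart. It had an FPKM of 4.26, 4.61 and 4.42 in control, 3.18, 3.46 and 2.91 in RANKL and 1.78, 1.42 and 1.89 with UD, so that the 3 groups did not overlap. The log2 fold change with UD against RANKL was −0.99 ± 0.13 (adjusted p = 2.97e-06). Bmpr2 fell by 0.22 (adjusted p = 0.00956), a call lost without RANKL replicate 1 (adjusted p = 0.0846) or without RANKL + UD replicate 3 (adjusted p = 0.054), whereas Bmpr1a had a log2 fold change of 0.00 (adjusted p = 0.984). Of the interferon receptors, Ifnar1 fell by 0.26 (adjusted p = 0.000399). Lifr had 13, 10 and 7 reads with UD against 4, 1 and 0 in RANKL, a ratio of 6.56 (95% exact interval 2.52 to 21.7), and the 703 reads of the control libraries stayed far above both. Its fitted log2 fold change of 2.54 ± 0.63 (adjusted p = 0.00281) was not called by limma on log2(FPKM + 1), at 0.07 (adjusted p = 0.715).

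RANKL + UD against control asks what remained different from unstimulated cells. Of the 64 tested members, 12 were higher and 36 lower, 75.0% of those tested against 54.0% of all genes (26.7% higher and 27.3% lower). With a fold change over 1.5 also required, 7 were higher and 27 lower, against 9.30% and 12.8% of all genes, and the FPKM values did not overlap for 52 members, against 59.9% of all genes. Some of these members were tested because of groups in which they were higher. The counts with the fold change required can therefore not be read as an excess over all genes. The median log2 fold change was −0.43 over the members and −0.002 over all genes. Interleukin receptors had 1 higher and 12 lower of 15, and TNF receptors 0 higher and 7 lower of 12. Restricted to members with an FPKM of at least 1 in all 9 libraries, 8 of 49 were higher and 29 lower. Under the same limit, interleukin receptors had 0 higher and 10 lower of 12, and TNF receptors 0 higher and 6 lower of 9. Il10ra (−3.06 ± 0.08, adjusted p = 1.25e-17) and Tnf (−1.49 ± 0.07, adjusted p = 4.24e-14) were lower than in control, and the same genes had −3.08 and −1.40 with RANKL alone.

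The BMP ligands and several growth factor cytokines were too sparse for the test. For the 58 members between the floor and the filter, read counts are given, with calls from the same fit on all 26736 genes that had any reads. In that fit, 9 of the 58 were higher and 7 lower in RANKL against control, and 0 were higher and 4 lower in RANKL + UD against RANKL. Over all genes of that fit, 14.4% were higher and 14.8% lower in the former and 8.69% and 9.18% in the latter. Those shares mix genes with many reads and genes with very few. No share was computed for genes as sparse as these members, so the counts cannot be compared with it. Ghr, the growth hormone receptor gene, had 0, 1 and 1 reads in control, 102, 116 and 111 in RANKL and 42, 42 and 61 with UD. Its RANKL to control ratio was 148 (40.8 to 1.23e+03), and its log2 fold change with UD was −1.13 (adjusted p = 4.3e-05). Lif had 59, 51 and 14 reads with UD, a log2 fold change of −0.96 (adjusted p = 0.00324). Its FPKM was 1.08, 0.90 and 0.96 in RANKL and 0.69, 0.72 and 0.19 with UD. The size of the fall thus leans on RANKL + UD replicate 3, and this fit was not repeated without that library. The other 2 that were lower with UD were Il11ra1 (−0.62, adjusted p = 0.0344) and Il12rb1 (−0.73, adjusted p = 0.0474), receptor chains for interleukin 11 and for interleukins 12 and 23.

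Bmp2, a bone-forming ligand, had 1, 1 and 0 reads in control and 16, 22 and 29 in RANKL, a ratio of 30.2 (8.05 to 255). With UD it had 24, 9 and 10 reads (adjusted p = 0.516 against RANKL). Bmp8b had no read in control and 8, 6 and 4 in RANKL. That is 5.42-fold over a floor of 3 reads for the control group, a value without an interval for counting error. Tgfb3 had 0, 5 and 0 reads in control, 13, 7 and 14 in RANKL and 2, 0 and 8 with UD. Bmp4 and Inhbb had no read in any library. Tnfrsf4 and Tnfrsf18, the receptors OX40 and GITR, were also higher in RANKL. Tnfrsf4 had 5, 3 and 6 reads in control and 21, 29 and 15 in RANKL, a ratio of 4.19 (2.33 to 8.09). Tnfrsf18 had none in control and 7, 8 and 11 in RANKL, 7.82-fold over the same floor, and 3, 0 and 1 with UD.

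Among those lower in RANKL, Tnfsf13b, which encodes BAFF, had 82, 94 and 60 reads in control and 34, 29 and 22 in RANKL (log2 fold change −1.51, adjusted p = 4.47e-07). Il4ra had 72, 141 and 88 reads in control and 44 in each RANKL library (−1.22, adjusted p = 9.99e-07). Tnfsf14, which encodes LIGHT, had 26, 31 and 38 reads in control and 4, 5 and 9 in RANKL, and Csf3, which encodes granulocyte colony-stimulating factor, had 13, 19 and 10 against 1, 0 and 0. Il33 and Il12b had no read in any library, Il6 had 2 reads in 1 control library, and Il10 had 2 reads in 1 RANKL library.

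**Figure D4:**
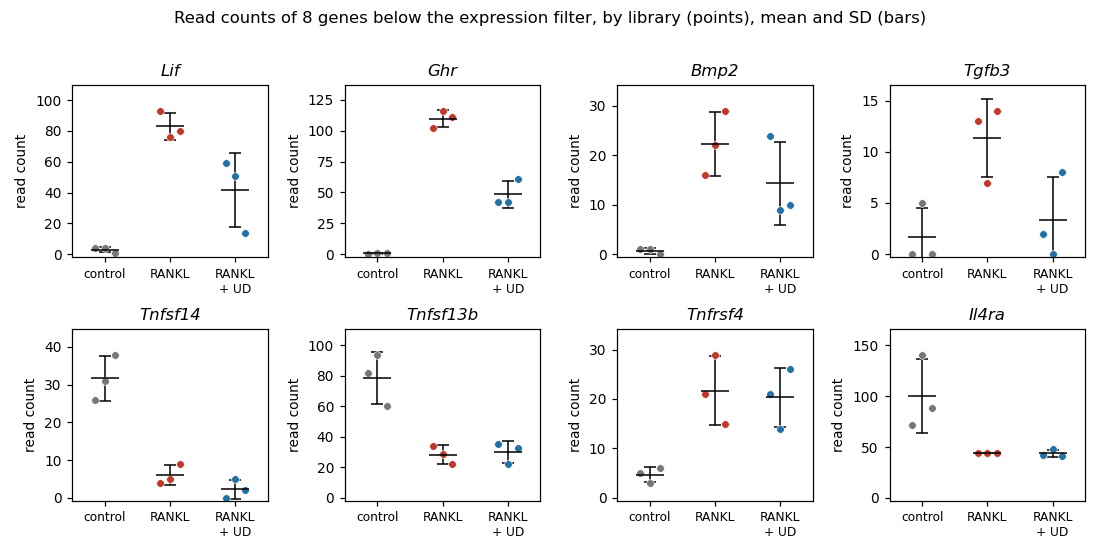
Read counts of 8 members below the expression filter in each library (points) with the group mean and SD (bars, n = 3), on a separate linear axis for each gene. Lif, Ghr and Bmp2 are near 0 in control and higher in RANKL. Tgfb3 and Tnfrsf4 are low in control and higher in RANKL, while Tnfsf14, Tnfsf13b and Il4ra are highest in control.

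Genes that carry the signal of these receptors inside the cell were read as well. Of 19 JAK, STAT and SOCS genes 15 were tested. In RANKL against control 1 was higher and 10 were lower, and with UD against RANKL 4 were higher and 2 lower, where 57.6% and 38.8% of all genes were called in either direction. Socs3, an inhibitor induced through gp130 and the interleukin 10 receptor, had a mean FPKM of 8.00 ± 0.98 (SD, n = 3) in control, 0.71 ± 0.06 in RANKL and 0.99 ± 0.17 with UD. Its log2 fold change in RANKL was −3.40 ± 0.16 (adjusted p = 1.49e-13), in the same libraries in which Il10ra, Il6ra, Il6st and Lifr were low. A link between these falls was not tested. Socs4 was the SOCS gene with the larger difference with UD, at 14.9 ± 1.61 in RANKL and 24.5 ± 0.57 with UD (0.63 ± 0.07, adjusted p = 3.37e-07). Stat2 fell by 0.99 in RANKL (adjusted p = 1.24e-09) and Jak2 was the gene that rose (0.29, adjusted p = 0.000463).

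All 7 genes listed for signalling at interleukin 1 receptors were tested (Myd88, Irak1, Irak2, Irak3, Irak4, Tollip and Sigirr). In RANKL 2 were higher (Tollip and Sigirr) and 4 lower, and with UD 1 was higher and 2 lower, against the same shares of all genes. Myd88 had a mean FPKM of 27.2 in control, 15.8 in RANKL and 20.0 with UD, and its log2 fold changes were −0.70 (adjusted p = 3.37e-09) in RANKL and 0.26 (adjusted p = 0.00244) with UD. Irak3, an inhibitory kinase of the group, fell by 1.56 ± 0.13 in RANKL (adjusted p = 1.82e-09). Of 5 BMP target genes 2 were tested. Id2 rose by 0.97 ± 0.10 (adjusted p = 4.46e-08) and Id3 fell by 2.05 ± 0.30 (adjusted p = 6.01e-06) in RANKL, and neither was called with UD.

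Of the 10 tested genes with other annotation, 1 was higher and 5 were lower in RANKL, and 3 were higher and 1 lower with UD, close to the 57.6% and 38.8% of all genes called. Pf4, which encodes platelet factor 4, had an FPKM of 2.22, 2.11 and 1.57 in control and 0, 0.36 and 0.51 in RANKL (−2.66 ± 0.60, adjusted p = 0.000682). AW549877, the most abundant of them, had log2 fold changes of 0.50 in RANKL (adjusted p = 2.91e-07) and −0.29 with UD (adjusted p = 0.000484), and shares 102 bases with Gm49286 on the same strand. Safb and Safb2, nuclear scaffold attachment factors that lie within 45.3 kb of each other and resemble each other in sequence, had log2 fold changes of 0.20 and 0.19 with UD (adjusted p = 0.0126 and 0.0116). The call of Safb was lost without RANKL replicate 3 (adjusted p = 0.0549) or without RANKL + UD replicate 2 (adjusted p = 0.0857), and that of Safb2 without RANKL + UD replicate 1 (adjusted p = 0.0992).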

How the data were processed

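The submitters' labels placed 9 RAW264.7 libraries in 3 groups, with replicate biosamples numbered 1 to 3. RNA was poly(A)-selected, and the libraries were made to keep strand. Whether the counting used strand is not given in the sources used here, and neither are the aligner and the counting tool. The deposited table holds whole read counts per gene, without normalization, and FPKM values that the authors made from these counts, the exonic gene length and the library total. Recomputed FPKM agreed within rounding for 100% of the genes. The submitters' processing notes name mm10, but of 52073 genes also found in the GRCm38 annotation only 1435 have the same start and end, so distances between genes are as the table gives them, and promoters were taken from RefSeq by symbol.

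The counts were tested with edgeR 4.0.16 in R 4.3.3, by the quasi-likelihood test with TMM scaling, all 9 libraries in 1 fit and Benjamini-Hochberg adjustment over 11995 genes (FPKM of 1 or more in 3 or more libraries). A gene was called at an adjusted p under 0.05. TMM factors were 0.9587 to 0.9624 for RANKL and 1.014 to 1.026 for the other libraries. With 3 libraries a group, a two-sided exact permutation test cannot go below 0.1. Ratios of sparse counts carry 95% exact intervals, which cover counting error only, except where a floor of 3 reads stood for a group without reads. Replicates differed beyond sampling noise (chi-square per degree of freedom 2.9 to 8.89). Classes were set by symbol. Genes were named when called with a log2 fold change of at least 1, when most abundant in their class, or when on a list of cytokines known in osteoclasts or macrophages. Genes of the "other" class, members below the filter outside these lists and promoter motifs were chosen after their values were seen. The members and lists were chosen with earlier results of these data known.

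Alternatives were DESeq2 1.42.0, RLE factors, total counts, other filters, a fold change over 1.5, only the libraries compared, a replicate block, each library left out, and limma 3.58.1 on log2(FPKM + 1) and log2(FPKM + 0.1). By the table's coordinates, Il18, Tnfsf9, Cd27, Acvr2a and Il10ra overlap a gene on the opposite strand, and Tnfsf12, Tnfsfm13, Ltb, Il10ra, AW549877 and C920009B18Rik one on the same strand.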

Additional observations from a re-analysis of the deposited data

How the results depend on the processing

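Over 2880 gene values (64 members, 3 comparisons and their alternatives), 0 changed sign after being called, 76 lost the call, 32 gained one and 59 moved by more than 1 SE without a call. In RANKL against control, the members higher were 14, and 23 with no filter, where more members were tested. The members lower were 37, and 22 with a fold change over 1.5 required. In RANKL + UD against RANKL, the members higher were 8, against 2 with the fold change required and 14 with total counts, and the members lower were 18, against 9 with the fold change required. In RANKL + UD against control, the members higher were 12, and 7 with the fold change required. Total counts moved the median of all genes by 0.086 (log2) in RANKL + UD against RANKL and by −0.088 in RANKL against control, and the share of higher calls among all genes called went from 48.0% to 66.2% in the former and from 47.5% to 36.8% in the latter. Leaving out each library in turn gave 14 to 16 higher and 33 to 35 lower in RANKL against control, 5 to 9 higher and 15 to 19 lower in RANKL + UD against RANKL, and 10 to 12 higher and 35 to 36 lower in RANKL + UD against control. The cause of these changes was not tested. The deviations of libraries with the same number correlated at −0.0194 to 0.0984, and those of libraries with different numbers at −0.102 to 0.0464. These ranges overlap and are small, so they do not decide whether the numbers pair the libraries. With the replicate block, 14 were higher and 37 lower, 8 and 19, and 11 and 36, in the same order of comparisons. DESeq2 gave 14 and 34, 8 and 18, and 11 and 36. Among the members tested, the calls of Tnfrsf1b, Il18rap, Lifr, Il1rl1, Bmpr2, Tnfsf9, Eda2r, Safb and Safb2 between RANKL + UD and RANKL, and those of Osm, Ltbr, Il2rg, Acvr1b, Bmpr2, Il10rb and Safb2 between RANKL and control, were lost in at least 1 alternative. Between RANKL + UD and control, the calls of Acvr1, Acvr1b, Acvr2a, Cd40 and Pf4 were lost in at least 1 alternative. That of Acvr1 (adjusted p = 0.0493) was lost with DESeq2 (adjusted p = 0.0578) and with each library of these groups left out. Members with few reads are limited by depth.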
